A study of Mus musculus with 48 samples.

Results

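The 10 genes described here are nuclear receptors of the absorptive cells of the gut, with 1 of their coactivators: Hnf4a, Hnf4g, Ppara, Pparg, Ppard, Nr1i2, Nr1i3, Nr5a2, Esrra and the coactivator Ppargc1a. They were listed by symbol, with earlier results of these data known. All 10 were among the 54532 genes counted and the 21986 genes tested. The samples were intestine of C57BL/6J mice of both sexes, untreated, with no transgene and no deletion, sequenced as total RNA. Each was a 2 cm piece, of duodenum just past the stomach or of ileum just before the caecum. The ages were day 0, 2, 4, 6 and 8 and week 2, 3 and 4, with 3 samples for each region and age, 48 in all. The housing is given in the labels as standard germ-free, and pups stayed with the dam to day 21 and then ate chow. The labels do not say which duodenum and ileum samples came from the same mouse, nor that each sample of an age is a separate mouse, so p-values measure the spread between these samples.

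Nuclear receptors are transcription factors that bind DNA directly, and most of them are switched by a small lipid-soluble ligand. The HNF4 pair keeps the enterocyte programme running, and HNF4A and HNF4G bind the same sites as dimers. The PPARs sense fatty acids and pair with the retinoid X receptors, PXR (gene Nr1i2) and CAR (gene Nr1i3) switch on the enzymes that clear foreign compounds and bile acids, LRH-1 (gene Nr5a2) acts in crypts and in steroid and bile acid metabolism, and ERR alpha (gene Esrra) works with the coactivator PGC-1 alpha (gene Ppargc1a) on mitochondrial genes. Weaning moves the gut from fat-rich milk to starch-rich chow.

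Total counts ran from 16824021 to 65042327 over the 46 samples used, and mitochondrial transcripts took 13.1% to 35.2% of them. The day 6 samples numbered 3 of both regions were left out because they look exchanged. Pdx1, a duodenal transcription factor, had 0.115 CPM (counts scaled to library size, with TMM scaling between libraries) in the duodenum sample numbered 3 against 11 and 11.7 in the others, and 14.5 CPM in the ileum sample numbered 3 against 0.0869 and 0.421. A further library stood apart at week 4: ileum number 1 had 41.7 CPM of the ileal bile acid binding protein gene Fabp6 against 1256 and 1936, and 1549 CPM of the lactase gene Lct against 106 and 259. At the same age duodenum number 2 had 1.81 CPM of Pdx1 against 20.7 and 17. The labelled tissue is the whole gut wall, and the summed level of 6 smooth muscle markers averaged 5.72 to 108 CPM per group while 7 epithelial markers averaged 3327 to 10187 CPM. These region genes were chosen after their values were seen. Week 4 ileum results of the members, and the counts of their target lists, are followed by the value without number 1. Such values rest on number 2 and number 3 for that group. Ileum week 4 number 3 was the library with the lowest total count and the highest mitochondrial share of the 46. The list counts without number 1 were added after the data were seen.

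The windows below run from 250 bases before to 50 bases after annotated start sites, from the RefSeq table of GRCm38.p6. They are shown for the member that changed most with age (Ppard), for the member whose change differed most between the regions (Nr1i3), for the members with a match to the receptor core motif AGGTCA (Pparg and Nr5a2), and for Cyp3a11, the gene of a drug-clearing enzyme and a standard target of PXR. Capitals mark matches, on either strand, to the core motif or to the HNF4 motif CAAAGTCCA.

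Ppard, chr17:28232504-28232803, plus strand: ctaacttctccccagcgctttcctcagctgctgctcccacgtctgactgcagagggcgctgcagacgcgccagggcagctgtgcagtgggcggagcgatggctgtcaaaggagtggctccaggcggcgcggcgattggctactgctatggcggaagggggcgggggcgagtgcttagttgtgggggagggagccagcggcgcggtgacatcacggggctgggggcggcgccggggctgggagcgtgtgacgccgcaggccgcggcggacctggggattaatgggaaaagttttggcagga
Nr1i3, chr1:171213720-171214019, plus strand: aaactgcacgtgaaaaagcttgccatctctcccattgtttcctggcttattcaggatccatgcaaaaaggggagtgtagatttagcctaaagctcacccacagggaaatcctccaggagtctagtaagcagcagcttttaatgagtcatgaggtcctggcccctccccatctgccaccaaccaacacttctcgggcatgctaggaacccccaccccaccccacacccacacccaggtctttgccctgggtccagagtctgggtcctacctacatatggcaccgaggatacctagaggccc
Pparg, chr6:115360894-115361193, plus strand: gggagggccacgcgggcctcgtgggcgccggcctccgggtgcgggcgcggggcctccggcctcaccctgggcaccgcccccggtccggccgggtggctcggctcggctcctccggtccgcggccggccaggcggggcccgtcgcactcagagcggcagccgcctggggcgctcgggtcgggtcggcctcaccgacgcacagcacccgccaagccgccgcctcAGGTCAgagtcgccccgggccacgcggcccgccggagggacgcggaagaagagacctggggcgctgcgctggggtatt
Pparg, chr6:115362099-115362398, plus strand: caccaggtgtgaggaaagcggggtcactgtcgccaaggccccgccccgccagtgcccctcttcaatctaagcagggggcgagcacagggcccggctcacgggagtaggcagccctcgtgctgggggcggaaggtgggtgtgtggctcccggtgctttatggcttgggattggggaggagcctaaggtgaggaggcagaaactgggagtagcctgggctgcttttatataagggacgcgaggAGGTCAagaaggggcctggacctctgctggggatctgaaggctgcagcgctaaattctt
Nr5a2, chr1:136960399-136960698, minus strand: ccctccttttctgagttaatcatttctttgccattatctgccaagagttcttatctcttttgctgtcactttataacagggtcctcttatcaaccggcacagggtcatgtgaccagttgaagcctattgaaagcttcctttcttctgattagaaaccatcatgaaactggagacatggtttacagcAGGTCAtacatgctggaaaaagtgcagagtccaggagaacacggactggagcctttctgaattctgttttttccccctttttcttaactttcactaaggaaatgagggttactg
Cyp3a11, chr5:145879805-145880104, minus strand: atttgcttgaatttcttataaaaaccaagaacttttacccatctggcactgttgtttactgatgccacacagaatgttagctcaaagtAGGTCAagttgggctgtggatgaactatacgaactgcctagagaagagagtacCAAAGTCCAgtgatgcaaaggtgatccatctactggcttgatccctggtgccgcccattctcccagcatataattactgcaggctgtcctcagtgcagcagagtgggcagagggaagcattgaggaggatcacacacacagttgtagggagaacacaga

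Of the 10 members, 9 had such windows, 13 windows in all; no window was at hand for Hnf4g. The core motif stood in 3 of the 13, at position -28 and position -9 from the start in the Pparg windows and at -64 in that of Nr5a2, where 16.3% of all 32851 windows of the same length held it. The HNF4 motif was in none of the 13 and in 0.475% of all windows; the Cyp3a11 window held it at -109, with the core motif at -162. The ERR motif TCAAGGTCA (0.423% of all windows), the LRH-1 motif TCAAGGCCA (0.591%), the direct repeats DR1 (0.0396%) and DR4 (0.0152%) of the core motif, which hold 2 copies of it 1 and 4 bases apart, and the HNF1 motif (0.00913%) were not in the 13 windows. The ERR motif and both repeats contain the core motif. A match or its lack describes these letters only.

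Every member differed with age in both regions. The edgeR quasi-likelihood test, with p-values adjusted by the Benjamini-Hochberg method over all 21986 genes, called 10 of 10 members at an adjusted p under 0.05 in the duodenum, where 67.4% of all genes were called, and 10 of 10 in the ileum, where 58.7% were. The ileum calls of Nr5a2 (adjusted p = 0.0283) and Esrra (0.0256) were lost without single libraries, with adjusted p-values of up to 0.115 without ileum week 4 number 3 for Nr5a2 and up to 0.107 without ileum day 8 number 1 for Esrra. Per kilobase of exon, Hnf4a was the highest of the 10 in all 16 groups of region and age, from 81.5 CPM per kilobase in the duodenum at day 0 to 193 at day 8. Hnf4g came next, except in the ileum from day 4 to week 2, where Esrra did. Pparg was the lowest per kilobase in every ileum group, at 2.14 to 5.96 CPM per kilobase. Differences below are log2 values with their standard error (SE), and levels are CPM, which rank samples for a gene but not genes against each other.

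**Figure D1:**
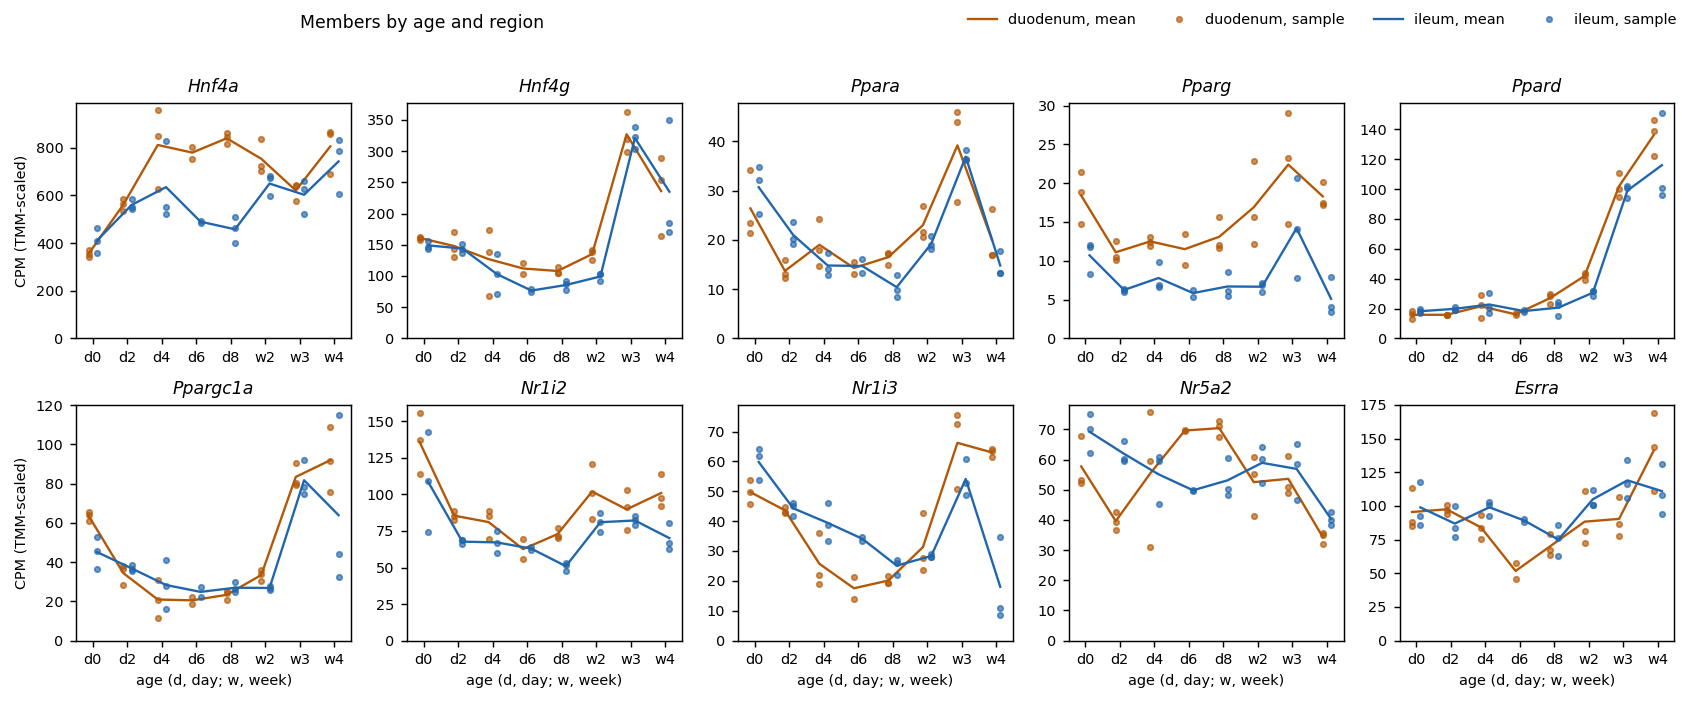
Levels of the 10 members in CPM (y axis, from 0, a separate scale for each gene) at the 8 ages (x axis) in duodenum and ileum; points are samples, 3 per group (2 at day 6), and lines join group means. Ppard climbs from about day 8 on in the duodenum and rises most between week 2 and week 3 in the ileum. Hnf4g and Ppargc1a jump between week 2 and week 3, and Pparg lies lower in the ileum.

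The changes with age are given by interval. From day 0 to day 8, 8 of 10 members were called in the duodenum (41.2% of all genes), 2 as higher (22% of genes) and 6 as lower (19.2%), and 4 in the ileum (19.3%), all as lower (10.7%). From day 8 to week 2, 2 were called in the duodenum (15.7% of genes) and 3 in the ileum (6.64%), all as higher (6.75% and 4.17% of genes, against 8.93% and 2.47% as lower). From week 2 to week 3, around weaning, the duodenum had 5 members called (18.3% of all genes) and the ileum 6 (26.8%), all as higher, while 7.7% and 12.9% of genes were called as higher. From week 3 to week 4, 3 were called in the duodenum (12.7% of genes), 1 as higher (7.75%) and 2 as lower (4.96%), and 3 in the ileum (16.1%), all as lower (7.81%, against 8.26% as higher). Over the whole span, week 4 against day 0, 5 members were called in the duodenum (40.5% of genes), 3 as higher (20.4%) and 2 as lower (20.1%), and 8 in the ileum (41.9%), 3 as higher (21.5%) and 5 as lower (20.4%). Leaving out ileum week 4 number 1 gave 7 members in place of these 8, with 8891 genes in place of 9210. From week 3 to week 4 it gave 5 members in place of 3. Leaving out single libraries there gave 2331 to 4368 genes (3534 with all). The comparisons of neighbouring ages share samples, as do those with day 0. In whole-tissue RNA, fewer cells of a type and less RNA per cell cannot be told apart.

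**Figure D2:**
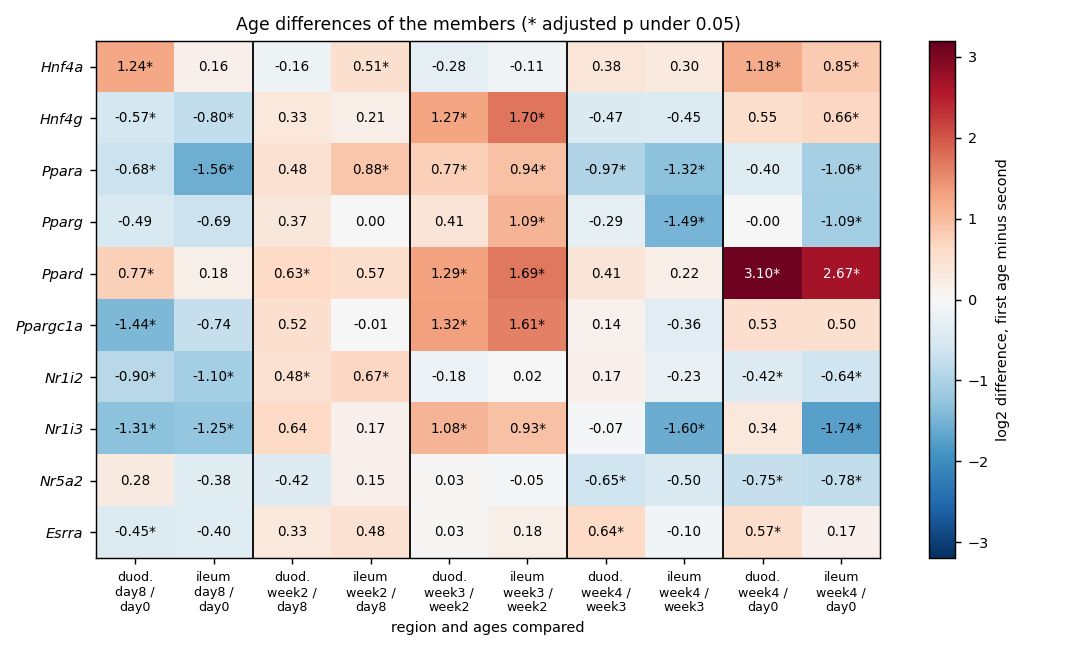
Log2 differences of the 10 members (rows) for 5 pairs of ages in each region (columns, first age minus second); colour and number give the difference and an asterisk an adjusted p under 0.05 in edgeR. The week 3 against week 2 columns hold 5 and 6 called rises and no called fall.

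Hnf4a lies at chr2:163506808-163572910 on the plus strand (GRCm38, GENCODE M21) and encodes the receptor that sets the enterocyte programme. In the duodenum its level was 370, 342 and 355 CPM in the samples of day 0 and 861, 815 and 845 at day 8, with no overlap. That rise, 1.24 (SE 0.16, adjusted p = 9.2e-08 in edgeR), was reached by day 4 in the mean (812 CPM), and at week 4 the samples stood at 692, 860 and 867 CPM. In the ileum the samples had 465, 410 and 359 CPM at day 0 and 401, 511 and 462 at day 8, which overlap (difference 0.16, SE 0.16, adjusted p = 0.539). By week 4 the ileum had 834, 788 and 607 CPM, above day 0 by 0.85 (SE 0.16, adjusted p = 3.56e-05; 0.72 and 0.00119 without number 1). So at day 8 the ileum was lower than the duodenum by -0.88 (SE 0.16, adjusted p = 7.82e-05), at day 0 and week 4 the regions differed by 0.21 (adjusted p = 0.525) and -0.12 (0.601; -0.22 and 0.34 without ileum week 4 number 1), and the age course differed between the regions (interaction, adjusted p = 0.00761). The ileum rise from day 8 to week 2, 0.51 (SE 0.16, adjusted p = 0.0476), was not called with RLE size factors, and leaving out any of 5 libraries (ileum day 8 numbers 1 and 3, ileum week 2 numbers 1, 2 and 3) gave adjusted p-values of 0.0662 to 0.318.

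Hnf4g (chr3:3508030-3658052, plus strand) encodes the paralogue that shares the sites of HNF4A, and its course was different: level or falling in the first week and highest at week 3. In the duodenum the samples had 157, 161 and 163 CPM at day 0, 139, 125 and 142 at week 2 and 363, 319 and 299 at week 3, the last above all others of that region. The ileum had 143, 147 and 156 CPM at day 0, 103, 91.5 and 103 at week 2 and 322, 339 and 303 at week 3. The step from week 2 to week 3 was 1.27 (SE 0.23, adjusted p = 7.35e-05) in the duodenum and 1.70 (SE 0.24, adjusted p = 4.07e-07) in the ileum. The fall to day 8 was -0.57 in the duodenum (adjusted p = 0.0445), a call lost on leaving out any of its 6 libraries (adjusted p 0.0672 to 0.108), and -0.80 in the ileum (0.0121; 0.0569 without ileum day 8 number 3). At week 4 the duodenum had 164, 289 and 254 CPM and the ileum 350, 171 and 185. The ileum step from week 3 to week 4 was not called with number 1 kept, and was -0.87 (adjusted p = 0.00721) without it. Between day 0 and week 4 the difference was 0.55 in the duodenum (adjusted p = 0.0533; 0.79 and 0.0106 without duodenum week 4 number 1) and 0.66 in the ileum (0.0198). The ileum value was 0.21 (adjusted p = 0.479) without week 4 number 1, the sample with the low Fabp6, and the call was also lost without ileum day 0 number 1 (0.0615) or number 2 (0.0519).

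The 10 genes listed as HNF4 targets, mostly of lipoproteins and transport, did not follow a single direction. In week 4 against day 0, 6 of 10 were called in the duodenum (40.5% of all genes), 2 as higher and 4 as lower. Their median was -0.24 where the median of all genes was -0.02. In the ileum 9 were called (41.9% of all genes), 3 as higher and 6 as lower (median -0.78, all genes 0.08). Without week 4 number 1 the counts were the same and the median was -1.26. Over all ages 8 were called between the regions (62.1% of all genes), 2 as higher and 6 as lower in the ileum (median -0.32). Among those lower were Apoc3, an apolipoprotein gene (-0.79, SE 0.13), and Apoa4 (-0.94, SE 0.14). Slc5a1, the brush border glucose carrier, rose from 940 ± 60.9 to 3568 ± 1301 CPM in the duodenum (mean ± SD, n = 3), a difference of 1.92 (SE 0.28, adjusted p = 4.8e-07). Ttr, the thyroid hormone carrier, fell in the ileum from 104 ± 55.8 to 1.29 ± 0.528 CPM (n = 3; difference -6.41, SE 0.41, adjusted p = 3.27e-15) and in the duodenum from 62.5 to 2.83 CPM (-4.46). Apoa4, an apolipoprotein of dietary fat transport, fell in the ileum by 3.58 on the log2 scale (SE 0.41, adjusted p = 4.13e-09), from 14648 to 1222 CPM, and by 4.85 without week 4 number 1. F2, the prothrombin gene, was low throughout and fell by 2.53 on the log2 scale in the duodenum (2.44 to 0.418 CPM) and by 2.97 in the ileum (4.1 to 0.517 CPM).

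Ppara (chr15:85734983-85802819, plus strand) encodes the receptor that turns on fatty acid oxidation, and it peaked at week 3 in both regions. The duodenum samples had 21.6, 26.8 and 20.6 CPM at week 2, 46, 44 and 27.6 at week 3 and 16.9, 17 and 26.2 at week 4. The ileum samples had 18.1, 20.8 and 18.9 CPM, then 36.2, 38.2 and 36.4, then 17.8, 13.2 and 13.3. All 3 samples of week 3 lay above those of week 2 and of week 4 in each region. The rise was 0.77 (SE 0.21, adjusted p = 0.00592) in the duodenum, where it was 0.64 (0.0514) without week 3 number 1, and 0.94 (SE 0.21, adjusted p = 0.000516) in the ileum. The fall to week 4 was -0.97 (SE 0.21, adjusted p = 0.00103) and -1.32 (SE 0.21, adjusted p = 1.24e-05; -1.50 and 1.65e-05 without ileum week 4 number 1).

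Ppara also fell after birth, further in the ileum: -0.68 in the duodenum from day 0 to day 8 (SE 0.21, adjusted p = 0.00729; -0.47 and 0.0847 without duodenum day 0 number 3) and -1.56 in the ileum (SE 0.21, adjusted p = 1.01e-06). The ileum samples of day 8 had 8.47, 12.8 and 9.9 CPM, all below the duodenum's 15, 17.2 and 17.4 (-0.66, SE 0.21, adjusted p = 0.0112; -0.54 and 0.0707 without ileum day 8 number 1). In the ileum the rise from day 8 to week 2 was 0.88 (SE 0.21, adjusted p = 0.00951; 0.76 and 0.136 without ileum day 8 number 1). The age course of Ppara differed between the regions (interaction, adjusted p = 0.0231), a call lost without duodenum day 2 number 2 (0.0591) or ileum day 2 number 1 (0.0577). Week 4 was below day 0 in the ileum (-1.06, SE 0.21, adjusted p = 8.02e-05; -1.26 and 5.67e-05 without ileum week 4 number 1), and in the duodenum the difference was -0.40 (adjusted p = 0.116; -0.60 and 0.0283 without week 4 number 3).

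More of the listed PPAR alpha targets were called as lower than as higher with age. Of 16 listed, 15 were tested. In week 4 against day 0, 10 were called in the duodenum (40.5% of all genes), 2 as higher and 8 as lower (median -0.73, all genes -0.02). In the ileum 11 were called (41.9% of all genes), 2 as higher and 9 as lower (median -0.90, all genes 0.08). Without ileum week 4 number 1 the ileum count was 1 as higher and 10 as lower. From week 2 to week 3, when Ppara itself was called as higher, 7 of them were called as lower (10.6% of all genes) and 2 as higher (7.7%) in the duodenum. In the ileum 5 were called as lower (13.9%) and 3 as higher (12.9%). A link between the receptor and these genes was not tested. Acot1, a thioesterase of long acyl chains, went from 140 CPM at day 0 to 7.27 at week 4 in the duodenum (-4.27, SE 0.31) and from 85 to 1.44 in the ileum (-5.85, SE 0.35). Acot1 has close paralogues, so its estimated counts depend on how shared reads were divided. Vnn1, a pantetheinase, went the other way, by 3.72 (SE 0.27) in the duodenum and 4.66 (SE 0.28) in the ileum, to 83.8 and 218 CPM. Between the regions, 12 of the 15 were called as lower (30.2% of all genes) and 1 as higher (31.9%) in the ileum over all ages (median -0.70). The largest differences were those of Cyp4a10, a fatty acid hydroxylase (-4.81, SE 0.27), and Pdk4, the kinase that blocks pyruvate oxidation (-1.90, SE 0.17).

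Pparg (chr6:115360951-115490399, plus strand), whose product drives fat cell formation and is also made by gut epithelium, was the member with the clearest regional difference. Over all ages it was lower in the ileum by -1.01 (SE 0.10, adjusted p = 8.56e-11), with 62.1% of all genes called in that comparison. At week 2 the ileum samples had 5.98, 7.12 and 6.87 CPM and the duodenum samples 22.9, 12.2 and 15.7, with no overlap. At week 4 they had 7.87, 3.41 and 4.01 against 20.2, 17.5 and 17.2 CPM, a difference of -1.86 (SE 0.29, adjusted p = 1.52e-05), or -2.33 (1.15e-06) without ileum week 4 number 1. The difference was -0.98 (adjusted p = 0.0056) at day 8 and -1.35 (0.000581) at week 2. At day 0 it was -0.77 (0.091) and at week 3 -0.66 (0.103); the latter was called without ileum week 3 number 1 (-1.04, 0.0168) or duodenum week 3 number 3 (-0.88, 0.0497). In the ileum Pparg rose from week 2 to week 3 (1.09, SE 0.28, adjusted p = 0.00257; 0.71 and 0.0693 without week 3 number 1, whose 20.7 CPM stood above the 14.1 and 7.72 of the others). It then fell to week 4 (-1.49, SE 0.29, adjusted p = 0.000229; 0.0671 in a model of the 6 samples compared) and ended below day 0 (-1.09, SE 0.29, adjusted p = 0.00226). Without week 4 number 1 these were -1.97 (1.47e-05) and -1.59 (8.65e-05).

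Fat cells and macrophages also express Pparg, and their markers were measured in the same samples. The fat cell gene Adipoq was at 0 in every sample but some of day 4 and week 4 in the duodenum and of week 3 and week 4 in the ileum, with at most 0.559 CPM, in an ileum sample of week 4. The summed level of the 7 fat cell markers went from 242 CPM at day 0 to 76 at week 4 in duodenum samples and from 134 to 32.9 in ileum samples. That sum was carried by Cidec, a lipid droplet gene also expressed outside fat cells, with 74.5 CPM in duodenum and 25.3 CPM in ileum samples of week 4. At week 4, 4 of the 7 were tested and all 4 were called between the regions (28.4% of all genes). Cidec was called as lower in the ileum (-1.56, SE 0.26), and Plin1 (1.86), Fabp4 (2.04) and Cfd (3.29) as higher, at means of 0.917 to 4.03 CPM there. The 6 macrophage markers at week 4 summed to 21.4 CPM (duodenum) and 22.1 CPM (ileum). The part of these cells in the regional difference of Pparg was not tested.

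Ppard (chr17:28232700-28301474, plus strand), the broadly expressed fatty acid receptor, showed the largest rise of the 10. In the duodenum its samples had 12.9, 18.4 and 16.1 CPM at day 0, 29.4, 23.1 and 28.4 at day 8, 42.5, 43.7 and 39.2 at week 2, 111, 94.9 and 99.8 at week 3 and 122, 146 and 139 at week 4. From day 8 on each age lay above the one before with no overlap. In the ileum it had 16.9, 19.5 and 18.3 CPM at day 0, 14.7, 22.4 and 24.6 at day 8, 28.2, 31.7 and 31.9 at week 2, 102, 94.2 and 101 at week 3 and 151, 95.8 and 101 at week 4. Week 4 against day 0 was 3.10 (SE 0.21, adjusted p = 9.23e-15) in the duodenum, 8.6-fold in the means, and 2.67 (SE 0.21, adjusted p = 2.7e-13) in the ileum, 6.35-fold, or 2.38 (1.11e-11) without ileum week 4 number 1.

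The largest of the 4 steps compared for Ppard between day 0 and week 4 was that from week 2 to week 3, with 1.29 (SE 0.20, adjusted p = 4.47e-06) in the duodenum and 1.69 (SE 0.20, adjusted p = 1.61e-08) in the ileum. The rise to day 8 was called in the duodenum (0.77, SE 0.20, adjusted p = 0.0018) and not in the ileum (0.18, adjusted p = 0.577), but the age courses of the regions were not called as different (interaction, adjusted p = 0.172). In the ileum the step from day 8 to week 2 was 0.57 (SE 0.20, adjusted p = 0.0773 in edgeR). The ileum step from week 3 to week 4 was not called, and was -0.03 (0.946) without week 4 number 1. The duodenum rise from day 8 to week 2, 0.63 (SE 0.20, adjusted p = 0.0257), was not called without duodenum day 8 number 2 (0.13) or number 3 (0.0507), or without duodenum week 2 number 1 (0.0967) or number 2 (0.0657). Its regional difference over all ages was -0.04 (SE 0.07, adjusted p = 0.661). The summed level of the 7 epithelial markers was also higher at the later ages. It went from 3784 CPM at day 0 to 4501 at week 2, 6814 at week 3 and 9678 at week 4 in the duodenum, and from 3732 to 4325, 10187 and 9726 CPM in the ileum. In week 4 against day 0, 6 of these 7 were called as higher in the duodenum (20.4% of all genes). In the ileum 6 were called as higher (21.5%) and 1 as lower (20.4%). From week 2 to week 3, 3 of 7 were called in each region, all as higher (7.7% of all genes in the duodenum, 12.9% in the ileum). The median of the 7 was -0.02 for duodenum and 0.46 for ileum samples. The part of a larger epithelial share in the changes of the members was not tested.

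Ppargc1a (chr5:51454250-51567726, minus strand), the coactivator, was high at birth, low in the first weeks and high again at week 3. The duodenum samples had 64.2, 60.9 and 65.3 CPM at day 0, 25.3, 24.1 and 20.6 at day 8, 30.5, 34 and 35.8 at week 2 and 90.6, 79.5 and 80.1 at week 3. The ileum samples had 36.7, 45.8 and 52.6 CPM, then 26.3, 29.8 and 24.6, then 26.9, 25.9 and 27.7, then 74.7, 92.2 and 78.2. In both regions the samples of day 8 lay below those of day 0 and those of week 3 above those of week 2. The fall to day 8 was -1.44 (SE 0.30, adjusted p = 0.000142) in the duodenum and -0.74 (SE 0.29, adjusted p = 0.0713) in the ileum. The rise to week 3 was 1.32 (SE 0.29, adjusted p = 0.00099) and 1.61 (SE 0.30, adjusted p = 5.4e-05).

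At week 4 the ileum samples of Ppargc1a had 115, 32.5 and 44.1 CPM, with number 1 far above the others, and the duodenum samples 75.5, 109 and 91.5. With all 3 ileum samples the regions differed by -0.53 (SE 0.29, adjusted p = 0.166) and without number 1 by -1.28 (0.00044). The ileum step from week 3 to week 4 was -0.36 (adjusted p = 0.464) with it and -1.11 (0.0022) without it. The interaction of region and age was 0.326 in adjusted p with it and 0.00638 without it. Week 4 against day 0 was 0.50 (adjusted p = 0.17) in the ileum, -0.28 (0.402) without week 4 number 1 and 0.82 (0.0235, called) without week 4 number 2, so its sign turned with the library left out.

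Esrra (chr19:6910977-6921813, minus strand), the receptor that PGC-1 alpha coactivates, moved less. Its levels at day 0 were 113, 88.3 and 85.4 CPM in the duodenum and 118, 85.9 and 92.7 in the ileum. In the duodenum it was lowest at day 6, with 45.7 and 57.8 CPM, and highest at week 4, with 111, 169 and 144. The rise from week 3 to week 4 was 0.64 there (SE 0.17, adjusted p = 0.00848), not called without duodenum week 3 number 2 (0.52, 0.0752) or week 4 number 2 (0.51, 0.0747). Week 4 against day 0 was 0.57 (SE 0.17, adjusted p = 0.00707) in the duodenum, where the samples overlap, and 0.17 (adjusted p = 0.451) in the ileum, or -0.01 (0.961) without ileum week 4 number 1. The fall to day 8 in the duodenum, -0.45 (adjusted p = 0.0321), was lost without duodenum day 0 number 1 (0.202) or day 8 number 2 (0.121) or number 3 (0.0903). Esrra was the member that was called as higher in the ileum over all ages, by 0.16 (SE 0.06, adjusted p = 0.0216), and this call was lost without duodenum day 6 number 1 (0.14, 0.0619), without day 4 (0.0532), with no low-count filter (0.0787) and with all 48 samples (0.10, 0.227). Its interaction of region and age had an adjusted p of 0.0322, which was 0.106 without duodenum day 6 number 1, 0.0793 without duodenum day 2 number 1, 0.0508 without ileum day 2 number 3, and 0.0683 and 0.083 without ileum day 6 number 1 and number 2.

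Of 14 listed targets of PGC-1 alpha and ERR alpha, genes of mitochondrial respiration, 9 were called in week 4 against day 0 in the duodenum. All 9 were higher (20.4% of all genes), and the median was 0.56 (all genes -0.02). In the ileum 3 were called (41.9% of all genes), 2 as higher and 1 as lower (median 0.23, all genes 0.08). Without week 4 number 1 it was 1 as higher and 2 as lower (median 0.02, all genes 0.03). From week 2 to week 3, 6 were called as higher (7.7% of all genes) and 1 as lower (10.6%) in the duodenum. In the ileum 10 were called as higher (12.9%). Cycs, the gene of cytochrome c, went from 193 ± 32.4 to 460 ± 64.9 CPM in the duodenum between day 0 and week 4 (n = 3; 1.25, SE 0.20, adjusted p = 3.31e-06) and from 90.1 ± 16 to 336 ± 97 in the ileum (n = 3; 1.90, SE 0.21, adjusted p = 9.08e-10). Idh3a, of the citric acid cycle, rose by 0.80 (SE 0.21) and 0.87 (SE 0.21), the ileum value being 0.43 (adjusted p = 0.0854) without week 4 number 1, and Sdhb, of respiratory complex II, by 0.94 (SE 0.24) in the duodenum. Sirt3, a mitochondrial deacetylase, fell in the ileum by 1.01 on the log2 scale (SE 0.18). Over all ages 12 of 14 were called as lower (30.2% of all genes) and 1 as higher (31.9%) in the ileum (median -0.68). Among those lower were Tfam, the mitochondrial transcription factor (-0.90, SE 0.06, adjusted p = 2.18e-15), and Idh3a (-0.89, SE 0.08).

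Nr1i2 (chr16:38248323-38294824, minus strand), which encodes the xenobiotic receptor PXR, was highest at birth. The duodenum samples had 114, 137 and 156 CPM at day 0, 76.9, 71.5 and 70.3 at day 8, 121, 83.4 and 101 at week 2 and 92.1, 114 and 97.6 at week 4. The ileum samples had 74, 109 and 143 CPM, then 53.3, 51.7 and 47.8, then 81.3, 74.3 and 87.4, then 80.4, 67 and 63. In each region day 8 lay below day 0 with no overlap, while week 4 overlapped day 0. The fall to day 8 was -0.90 (SE 0.16, adjusted p = 2.88e-05) in the duodenum and -1.10 (SE 0.17, adjusted p = 6.19e-06) in the ileum. The partial return by week 2 was 0.48 (adjusted p = 0.0402) in the duodenum, which leaving out any of 5 of its 6 libraries turned to 0.0732 to 0.281 (the exception was week 2 number 2), and 0.67 (0.0118) in the ileum, which was 0.0819 without ileum day 8 number 1 and 0.0648 without ileum week 2 number 3.

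Nr1i2 was not called from week 2 to week 3, with -0.18 (SE 0.16, adjusted p = 0.503) in the duodenum and 0.02 (SE 0.16, adjusted p = 0.948) in the ileum. Week 4 against day 0 was -0.42 in the duodenum (adjusted p = 0.0354), lost without duodenum day 0 number 2 (0.0764) or number 3 (0.255) and without week 4 number 1 (0.171) or number 3 (0.124). In the ileum it was -0.64 (0.00185), -0.79 (0.000709) without week 4 number 1 and -0.38 (0.0659) without day 0 number 3. Over all ages the ileum was lower by -0.30 (SE 0.06, adjusted p = 3.71e-05). At day 8 the regional difference was -0.52 (0.0117; 0.052 without ileum day 8 number 3) and at week 4 -0.53 (0.0164; -0.65 and 0.00726 without ileum week 4 number 1, 0.0599 without number 3 and 0.0763 in a model of the 6 samples compared).

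Nr1i3 (chr1:171213970-171220701, plus strand), which encodes CAR, the partner of PXR in clearing foreign compounds, ended at different levels in the regions. The regions overlapped at day 0, with 45.8, 53.8 and 49.6 CPM in the duodenum and 61.7, 53.6 and 64.2 in the ileum (0.27, adjusted p = 0.677). Both fell to day 8, to 21.5, 19.4 and 19.4 CPM (-1.31, SE 0.28, adjusted p = 0.000268) and 22, 26 and 27.1 CPM (-1.25, SE 0.28, adjusted p = 0.00136). At week 3 both were high again, with 75.6, 72.4 and 50.6 CPM in the duodenum and 48.6, 60.9 and 52.8 in the ileum. The rise from week 2 was 1.08 (SE 0.28, adjusted p = 0.00459) and 0.93 (SE 0.28, adjusted p = 0.0109).

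At week 4 the duodenum samples of Nr1i3 stayed at 63.4, 61.5 and 64 CPM while the ileum samples had 34.8, 8.47 and 10.8, all below the duodenum. The ileum fall from week 3 was -1.60 (SE 0.29, adjusted p = 9.21e-05) and the duodenum difference -0.07 (SE 0.28, adjusted p = 0.903). The regions differed at week 4 by -1.81 (SE 0.29, adjusted p = 2.21e-05). The change from day 0 to week 4 differed between the regions by -2.08 (SE 0.40, adjusted p = 0.00134), where 1 of 10 members and 5.99% of all genes were called. The ileum sample with the high value was number 1, and without it the ileum fall from week 3 was -2.52 (5.23e-10), the regional difference -2.74 (1.29e-10) and the difference of the changes -3.01 (1.92e-08). In models of the compared groups alone the regional difference at week 4 had an adjusted p of 0.0654, the difference of the changes 0.0703 and the ileum fall from week 3 0.145, so none of these was called. Over all 8 ages the interaction had an adjusted p of 0.00034.

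**Figure D3:**
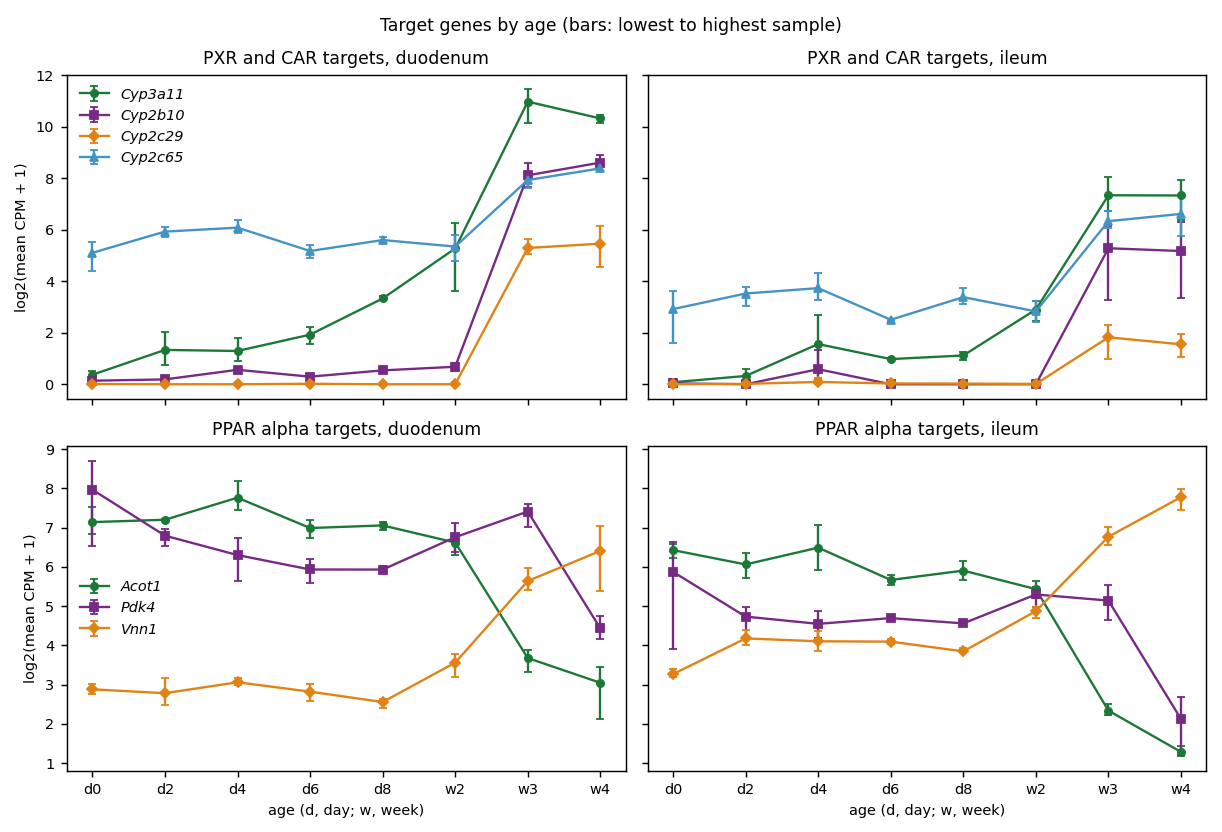
Target genes of PXR and CAR (top) and of PPAR alpha (bottom) by age in duodenum (left) and ileum (right), as log2 of the mean CPM plus 1; bars run from the lowest to the highest sample, 3 per group (2 at day 6). Cyp2b10 and Cyp2c29 lie near 0 up to week 2 in both regions and higher at week 3, while Acot1 lies lower at week 3 than at week 2 in both.

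The 15 listed targets of PXR and CAR, enzymes and transporters of detoxification, rose as a group from week 2 to week 3. In the duodenum 14 of 15 were called as higher (7.7% of all genes), with a median of 2.93 (all genes 0.03). In the ileum 12 were called as higher (12.9% of all genes) and 1 as lower (13.9%), with a median of 2.41 (all genes 0.03). From day 0 to week 4 there were 14 as higher in the duodenum (20.4% of all genes, median 3.2). The ileum had 12 as higher (21.5%) and 1 as lower (20.4%), with a median of 1.86. Without ileum week 4 number 1 it was 11 as higher and 1 as lower (median 2.01). Cyp3a11, the drug-clearing enzyme whose promoter is printed above, had 74.9, 11.2 and 26.9 CPM in the duodenum at week 2 and 2096, 2806 and 1131 at week 3 (5.74, adjusted p = 2.39e-06). In the ileum it had 6.58, 8.39 and 4.48 CPM and then 115, 263 and 104 (4.62, adjusted p = 2.31e-05). The exception, named after its values were seen, was Abcc2, an export pump for conjugates, which in the ileum went from 2112 ± 445 CPM at day 0 to 407 ± 156 at week 4 (n = 3; -2.38, adjusted p = 2.77e-07).

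Cyp2b10, the classic CAR target, had 0 counts in the ileum at week 2 and 37.9 ± 30.5 CPM at week 3 (n = 3), which is at least 1374-fold higher when 3 counts over the group are taken as the floor. In the duodenum Cyp2b10 went from 9 counts at day 0 to 39160 at week 4, a ratio of rates of 4788 with a 95% interval of 2522 to 10471 that covers counting error only. In the ileum its ratio was 917 (313 to 4452) on 3 counts at day 0. Cyp2c29 had 1 count at day 0 in the duodenum and 4185 at week 4, a ratio of 4605 (826 to 181921), and in the ileum 0 counts at day 0 and 112 at week 4, at least 54-fold higher. With these genes at their bounds the group medians were the same. The Cyp2b, Cyp2c and Cyp3a families hold near-identical copies, so these values depend on how shared reads were divided.

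Between the regions, 12 of the 15 were called as lower (30.2% of all genes) and 2 as higher (31.9%) in the ileum over all ages (median -1.19, all genes 0.08). At week 4, 13 were called as lower (13.9% of all genes), with a median of -1.85 (all genes 0.08). The count was also 13 without ileum week 4 number 1 (median -2.19). Cyp2c65 was lower in the ileum by -2.33 (SE 0.15, adjusted p = 5.25e-15), with week 4 levels of 97.1 ± 52.8 CPM in ileum and 333 ± 39.2 CPM in duodenum samples (n = 3), and Cyp2b10 by -4.17 (SE 0.98, adjusted p = 0.000741). In these same libraries at week 4 Nr1i2 and Nr1i3 were also lower in the ileum, as given above. From week 2 to week 3 the targets rose while Nr1i3 rose and Nr1i2 did not pass the test. From day 0 to week 4 in the ileum, 12 of the 15 were called as higher while Nr1i2 (-0.64) and Nr1i3 (-1.74) were called as lower. Without ileum week 4 number 1 it was 11 of the 15, with -0.79 for Nr1i2 and -2.69 for Nr1i3. A link between the levels of the receptors and of these genes was not tested.

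Nr5a2 (chr1:136842571-136960448, minus strand), which encodes LRH-1, ended lowest at week 4 in both regions. The duodenum samples had 53.1, 52.3 and 67.8 CPM at day 0, 71, 72.7 and 67.4 at day 8, 61.1, 48.8 and 51 at week 3 and 35.1, 32.1 and 35.6 at week 4. The ileum samples had 70.2, 62.1 and 75.2 CPM, then 48.3, 60.6 and 50.3, then 65.3, 58.6 and 46.7, then 40, 42.7 and 38.2. In each region week 4 lay below day 0 and below week 3 with no overlap. Week 4 against day 0 was -0.75 (SE 0.19, adjusted p = 0.0012) in the duodenum and -0.78 (SE 0.19, adjusted p = 0.000839) in the ileum (-0.82 and 0.00267 without week 4 number 1). The step from week 3 was -0.65 (adjusted p = 0.0158) in the duodenum, which was 0.096 without duodenum week 3 number 1 and 0.0942 without week 4 number 2, and -0.50 (0.0647) in the ileum, -0.51 (0.103) without week 4 number 1 and called without ileum week 3 number 3 (-0.62, 0.027). The interaction of region and age (adjusted p = 0.0319) was lost on leaving out any of 16 of the 46 libraries, with adjusted p-values of 0.0508 to 0.0956.

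Among 10 listed LRH-1 targets, 8 were called in week 4 against day 0 in the duodenum (40.5% of all genes), 4 each way (median -0.62, all genes -0.02). In the ileum 7 were called (41.9% of all genes), 3 as higher and 4 as lower (median -0.72, all genes 0.08), and without week 4 number 1 it was 2 as higher and 5 as lower. Scarb1, a lipoprotein receptor, fell in the ileum from 21.7 ± 2.01 to 3.49 ± 1.12 CPM (n = 3; -2.66, SE 0.32, adjusted p = 1.31e-08), and Ccnd1, a cyclin of the cell cycle, rose in the duodenum from 21.5 ± 5.03 to 78 ± 16.1 CPM (n = 3; 1.85, SE 0.26, adjusted p = 3.53e-07). Cyp11a1, the entry enzyme of steroid synthesis, was higher in the ileum over all ages by 2.57 (SE 0.29) but low, and fell there from 574 counts at day 0 to 4 at week 4, a ratio of 99.2 (95% interval 38.5 to 365, counting error only). Cyp11b1, the last enzyme of corticosterone synthesis, had 18 counts at day 0 and 2 at week 4 in the duodenum, too few to give a ratio of use, and its edgeR call (adjusted p = 0.0427) was not made by DESeq2 (0.0965). Nr0b2, which encodes the corepressor SHP, fell in the ileum from 1.47 to 0.161 CPM (-3.09, SE 0.47), on 132 and 11 counts.

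**Figure D4:**
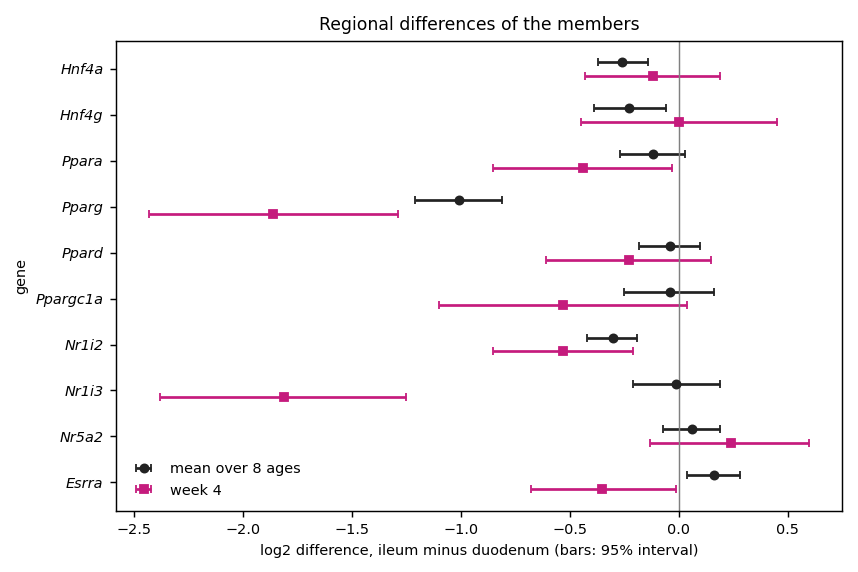
Log2 difference of ileum minus duodenum (x axis) for each member (y axis) with 95% intervals, averaged over the 8 ages and at week 4. Pparg lies below 0 in both, and Nr1i3 lies near 0 on average and at -1.81 at week 4.

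Between the regions, 5 of 10 members were called over all ages, 4 as lower in the ileum (30.2% of genes) and 1 as higher (31.9%). Beside Pparg, Nr1i2 and Esrra these were Hnf4a (-0.26, SE 0.06, adjusted p = 0.000215) and Hnf4g (-0.23, SE 0.08, adjusted p = 0.019). The Hnf4g call was lost with RLE size factors (0.0511), with all 48 samples (0.0949), and without duodenum week 4 number 2 (0.056), ileum week 4 number 2 (0.0548) or ileum week 4 number 3 (0.0513). At single ages edgeR called 0 of 10 members at day 0, when 6.1% of genes were called (2.97% as higher and 3.14% as lower in the ileum). Day 8 gave 4 members (39.6% of genes), all lower in the ileum (22.6%, against 17.1% higher). Week 2 gave 1 (22.4%), also lower (11.8%, against 10.6% higher). Week 3 gave 0 (14.2% of genes, 7.28% higher and 6.9% lower). Week 4 gave 3 (28.4%), all lower (13.9%, against 14.5% higher). At an unadjusted p under 0.05 there was 1 at day 0 (Pparg) and 2 at week 3 (Pparg and Esrra), and DESeq2 called 0 at both ages. The interaction of region and age was called for 5 of 10 members (22.4% of genes). Without ileum week 4 number 1, 6 members were called at week 4, among them Ppara (-0.61, adjusted p = 0.0442) and Esrra (-0.50, 0.0374). All genes called at week 4 then went from 6234 to 7232. Without that library 7 members were called in the interaction, with no share of all genes given here. Over the same samples the 6 smooth muscle, 6 fibroblast and 4 endothelial markers were all called as higher in the ileum over all ages, and 8 of 10 pancreatic acinar markers as lower. The part of these cells in the regional differences of the members was not tested.

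Other receptors that share partners or sites with the members were followed too. Of 19 listed, 18 were tested, and 11 were called in week 4 against day 0 in the duodenum, 7 as higher and 4 as lower (40.5% of all genes; median 0.10, all genes -0.02). In the ileum 8 were called (41.9% of all genes), 3 as higher and 5 as lower (median -0.06, all genes 0.08), and without week 4 number 1 it was 2 as higher and 7 as lower. Vdr, the vitamin D receptor gene, went from 21.5 ± 3.45 to 338 ± 22.1 CPM in the duodenum (n = 3; 3.97, SE 0.19, adjusted p = 3.34e-19) and from 30.8 ± 4.44 to 245 ± 16.7 in the ileum (n = 3; 2.99, SE 0.18, adjusted p = 1.42e-16). Nr1h4, which encodes the bile acid receptor FXR, fell in the duodenum from 172 ± 4.98 to 29.1 ± 2.01 CPM (n = 3; -2.56, SE 0.21, adjusted p = 1.54e-12). Esrrb, a relative of Esrra, was at 78 counts at day 0 and 2 at week 4 in the duodenum, a ratio of 35.4 (9.49 to 298), and at 45 and 3 counts in the ileum, a ratio of 10.4 (3.33 to 52.2). Over all ages 10 were called as lower (30.2% of all genes) and 4 as higher (31.9%) in the ileum. Rarg, a retinoic acid receptor gene, was higher by 1.16 (SE 0.11). Nr2f1, an orphan receptor gene at 0.546 CPM in ileum and 0.0502 CPM in duodenum samples of week 4, was higher by 2.01 (SE 0.37).

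Few coregulators were called between day 0 and week 4. In the duodenum edgeR called 0 of 12 (40.5% of all genes; median 0.06, all genes -0.02), 1 had an unadjusted p under 0.05 (Ppargc1b) and DESeq2 called 0. In the ileum 3 were called (41.9% of all genes; median 0.19, all genes 0.08; also 3 without week 4 number 1): Ncoa3, a coactivator of many receptors (0.65, SE 0.16), and Pprc1, of the PGC-1 family (0.73, SE 0.23), as higher and Lpin1, a partner of PGC-1 alpha and PPAR alpha (-0.57, SE 0.19), as lower. Over all ages 7 were called as lower (30.2% of all genes) and 1 as higher (31.9%) in the ileum. Ppargc1b, the relative of Ppargc1a, was lower in the ileum by -1.29 (SE 0.10, adjusted p = 5.78e-14), with day 0 levels of 11.8 ± 5.49 CPM in ileum and 32.5 ± 1.87 CPM in duodenum samples (n = 3), while Ppargc1a differed by -0.04 (SE 0.11, adjusted p = 0.753).

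Likeness between genes was taken as Pearson's r of log2 CPM over the 46 samples, which share ages and regions, so it is a description with no test. Among the members the pair most alike was Hnf4g and Ppargc1a (r = 0.89), followed by Hnf4g and Ppard (0.70), and the least alike were Nr5a2 and Esrra (-0.52). Of 12356 genes compared, those most like each member were Tjp3 (0.88) and Elf3 (0.87) for Hnf4a, Ndfip2 (0.94) and Clcn3 (0.93) for Hnf4g, Mpzl3 (0.79) and Rab4a (0.78) for Ppara, Gstm7 (0.90) and Snx7 (0.87) for Pparg, and Cyp4f14 (0.97) and Slc9a2 (0.96) for Ppard. For the others they were Jak2 (0.92) and Ndfip2 (0.92) for Ppargc1a, Sh3d21 (0.86) and Lpcat3 (0.86) for Nr1i2, Atp7b (0.84) and Plekhf1 (0.84) for Nr1i3, Miga1 (0.88) and Naa25 (0.82) for Nr5a2, and Src (0.91) and Slc27a4 (0.89) for Esrra.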

How the data were processed

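Estimated counts per gene were deposited by the authors for all 48 samples, not normalized. The deposited tables of normalized signal supplied gene symbols only. All 40 of their columns were the counts times 1 factor per column. Those tables have no columns for day 4 or for the day 6 samples numbered 3, while day 4 was kept in the fit here. STAR 2.6.1d, Salmon 0.14.2, DESeq2 1.30.1 and mm10 are listed in the submitters' processing notes, with no roles given. Counts were used as deposited, and 46 samples (16824021 to 65042327 counts) were fitted with 1 mean per region and age. The fit was made by edgeR 4.0.16 (TMM scaling, filterByExpr, robust quasi-likelihood) in R 4.3.3, with 20 comparisons and Benjamini-Hochberg adjustment over 21986 genes. Log2 CPM used a prior count of 2, and levels per kilobase used the merged exon length in GENCODE M21. Intervals and floors of 3 counts cover counting error only.

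The alternatives were RLE size factors, no low-count filter, a mean count of at least 10, DESeq2 1.42.0, the compared groups alone, a replicate block, all 48 samples, no day 4 samples, and each sample left out in turn. Named genes were the members, and of each list up to 3 called genes with the largest change from day 0 to week 4 per region and up to 2 between regions, plus the 2 genes most like each member. Of the genes this rule names, 1 is not reported here. List counts without ileum week 4 number 1 were added after the data were seen. The members and lists were chosen with earlier results of these data known. Tested on simulated data with 21811 genes, the fit recovered 32% of genes changed 2-fold and 59% of those changed 4-fold in duodenum week 4 against day 0, with 7.14% false calls. The simulation changed 100 genes at each fold, drawn from genes of every level, and used no low-count filter. In the data far more genes were called, so these shares do not carry over to the members.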

Additional observations from a re-analysis of the deposited data

Results flagged for a closer look

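The age courses of 5 of 10 members were called as different between duodenum and ileum by the interaction test in edgeR, where 22.4% of all genes were called. The adjusted p-values were 0.00034 for Nr1i3, 0.00761 for Hnf4a, 0.0231 for Ppara, 0.0319 for Nr5a2 and 0.0322 for Esrra. With all 48 samples, which include those of day 6 that look exchanged, 1 member was called, Nr1i3. Hnf4a then had an adjusted p of 0.101 and Ppara of 0.065. The change of Nr1i3 from day 0 to week 4 also differed between the regions (-2.08, adjusted p = 0.00134), with all 3 ileum samples of week 4 below all 3 of the duodenum. The single libraries on which these calls rest are given with each gene above.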

How the results depend on the processing

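None of the member results changed sign while called. Of 2400 repeats with 1 sample left out, 2256 kept direction and side of the threshold, 48 changed sign while uncalled, 16 gained and 80 lost a call; under the other alternatives it was 1488 of 1580, with 17 changed in sign, 41 gained and 34 lost. The causes of the shifts below were not tested.

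In models of the compared groups alone, genes called went from 3448 to 6278 in duodenum week 2 against day 8, from 1460 to 3472 in the same ileum comparison, from 3534 to 1527 in ileum week 4 against week 3, from 4922 to 7426 and from 6234 to 2491 between the regions at week 2 and week 4, and from 1317 to 377 in the difference of the changes. Members called went from 5 to 8 in duodenum week 4 against day 0, from 2 to 6 in duodenum week 2 against day 8, from 3 to 1 in ileum week 4 against week 3, from 4 to 7, 1 to 4 and 3 to 1 between the regions at day 8, week 2 and week 4, and from 1 to 0 in the difference of the changes. With all 48 samples, genes called were 1528 and 417 in week 2 against day 8 of duodenum and ileum, 578 (main 1342), 2561 and 1376 (main 3117) between the regions at day 0, week 2 and week 3, 947 (main 4930) in the interaction and 697 in the difference of the changes; members called were 1 in duodenum week 2 against day 8, 3 (main 5) between the regions over all ages and 1 (main 5) in the interaction. With no low-count filter they were 1 member in duodenum week 2 against day 8, 886 genes in ileum week 2 against day 8 and 894 genes between the regions at day 0. Without day 4, genes called were 3037 in ileum week 2 against day 8, 4568 (main 2794) in duodenum week 4 against week 3, 2419 and 5585 between the regions at day 0 and week 3, 9512 in the interaction and 3146 in the difference of the changes, and members called were 5 in ileum week 2 against day 8 and in ileum week 4 against week 3, and 3 and 1 between the regions at week 2 and week 3.

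Replicate numbers did not meet the rule for pairing, every pair over 0.1, although 16 of 23 pairs did: deviations of same-numbered duodenum and ileum samples correlated from -0.36 to 0.67 (mean 0.16; -0.08 over 44 pairs of different numbers), with 17 of 23 duodenum samples correlating best with their own number, a hint from the data only. The replicate block was the sample number within a region for comparisons of ages. For those between regions, the interaction among them, it was the pair of the same age and number. Deviations of same-numbered samples of different ages in 1 region correlated by -0.02 in the mean (154 pairs). With the replicate block, members called were 1 in duodenum week 2 against day 8 (main 2), 1 between the regions at day 0 and at week 3 (main 0 at both, Pparg) and 2 in the difference of the changes (main 1, with Pparg at 0.0213 added). The block ended the calls of Hnf4g over all ages between the regions (0.0503), Nr1i2 and Hnf4a in week 2 against day 8 (0.0581 and 0.0506), and Nr5a2 and Esrra in the interaction (0.0522 and 0.0709), and called Pparg there (0.0332).

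With 1 sample left out at a time, genes called ranged from 2639 to 3685 in ileum day 8 against day 0, from 825 to 3018 in duodenum week 2 against day 8, from 60 to 1376 in ileum week 2 against day 8, from 1706 to 2738 in duodenum week 4 against week 3, from 2331 to 4368 in ileum week 4 against week 3, from 484 to 1280 in ileum against duodenum at day 0, from 3266 to 4301 in ileum against duodenum at week 2, from 1658 to 3112 in ileum against duodenum at week 3, from 3256 to 7232 in ileum against duodenum at week 4 and from 607 to 2288 in the difference of the changes. Members called ranged from 0 to 1 in duodenum week 2 against day 8, from 0 to 3 in ileum week 2 against day 8, from 1 to 3 in duodenum week 4 against week 3, from 3 to 5 in ileum week 4 against week 3, from 0 to 1 in ileum against duodenum at day 0, from 0 to 1 in ileum against duodenum at week 3, from 2 to 6 in ileum against duodenum at week 4, from 3 to 7 in the interaction and from 1 to 2 in the difference of the changes. The share of calls that were higher moved by over 10 points in duodenum week 4 against week 3 (61%, 49.8% with a mean count of at least 10, 41.2% without day 4), ileum week 4 against week 3 (51.4%, 66% with the compared groups alone) and between the regions at week 3 (51.3%, 40.7% with a mean count of at least 10, 33.4% without day 4). With 3 samples a group, an uncalled member may have changed.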
